A study of Homo sapiens with 9 samples.

Results

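Expression of TCA cycle and glutamine enzymes was followed in the established human B-lymphocyte line P493-6 at Myc levels labelled high, low or none. The genes were CS, IDH3A, OGDH, SUCLG1, FH, MDH2, GLUD1 and GLUL, and every probe set whose single gene symbol in the platform annotation was one of these was taken. This gave 17 probe sets of 54675, for 7 of the 8 genes. CS had 1 probe set, IDH3A 3, OGDH 3, SUCLG1 2, MDH2 2, GLUD1 2 and GLUL 4. FH, which was not analysed here, had no probe set with FH as its single symbol in the annotation used.

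Single-colour arrays of total RNA formed 3 groups, with 4 arrays of cells with high Myc expression, 3 with low and 2 with none. The labels state no agent, dose or time for any group. As background, the line carries a MYC gene that tetracycline represses and a form of EBNA2, the Epstein-Barr virus transcription factor, that needs estrogen. All arrays come from this 1 line and the labels name no separate cultures, so the p-values reflect the spread of these arrays alone, and that spread may be technical.

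The TCA cycle runs in the mitochondrial matrix, where it oxidises acetyl groups to carbon dioxide and passes electrons to the respiratory chain. Its intermediates also leave for the synthesis of lipids, amino acids and nucleotides. Glutamine refills it after conversion to glutamate and then to 2-oxoglutarate, and proliferating B cells with active MYC are known for a high use of glutamine.

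Intensities are RMA values on a linear scale, and differences are on the log2 scale with their standard error (SE). Array medians were 75.3 to 80.3. Correlations between arrays over 19775 genes, each represented by its brightest probe set, ran from 0.976 to 0.992 for arrays of 1 group and from 0.917 to 0.982 for arrays of different groups. MYC itself, the check of the labels, had intensities of 11326 to 15404 at high Myc and 1443 to 2526 at low Myc. In the no Myc group it went against 1 label: replicate 2 was at 416, but the library labelled no Myc replicate 1 was at 2803 and so exceeded all 3 low Myc values. The 3' minus 5' difference of the GAPDH control probe sets, a sign of RNA quality, was 0.25 and 0.42 (log2) for no Myc and between 0.01 and 0.24 elsewhere. For the ACTB control sets it was 0.0039 and -0.011 for no Myc and -0.07 to 0.19 elsewhere, which set neither no Myc array apart. By GAPDH only no Myc replicate 2 (0.42) stood apart, since no Myc replicate 1 (0.25) lay next to high Myc replicate 3 (0.24). The part of RNA quality in the differences from no Myc was not tested. All 7 measured B-cell markers, CD79A among them, had a mean log2 intensity of at least 7. So did 1 of 7 T and NK cell markers, 0 of 4 myeloid, 1 of 4 erythroid and platelet and 2 of 6 fibroblast and epithelial markers. In bulk RNA, fewer cells expressing a gene and less RNA per cell cannot be told apart.

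RefSeq promoter windows, 250 bases before to 50 after each gene start, were at hand for 6 of the 7 measured genes, with 2 windows for GLUL. MYC with its partner MAX is known to bind the E-box CACGTG, which reads the same on both strands. The windows of the members that rose most are shown, with the GC-rich stretch GGCGGG or its reverse complement CCCGCC in capitals. The shifted form GGGCGG was not searched. No marked stretch was found in the MDH2 window.
MDH2 promoter, GRCh38.p14 chr7:76047856-76048155, strand plus: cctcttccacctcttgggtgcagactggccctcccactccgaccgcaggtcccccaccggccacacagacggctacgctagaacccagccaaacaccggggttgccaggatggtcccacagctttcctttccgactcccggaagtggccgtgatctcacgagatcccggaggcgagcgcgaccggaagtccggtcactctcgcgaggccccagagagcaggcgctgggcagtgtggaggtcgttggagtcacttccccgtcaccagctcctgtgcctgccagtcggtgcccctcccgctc
IDH3A promoter, GRCh38.p14 chr15:78149112-78149411, strand plus: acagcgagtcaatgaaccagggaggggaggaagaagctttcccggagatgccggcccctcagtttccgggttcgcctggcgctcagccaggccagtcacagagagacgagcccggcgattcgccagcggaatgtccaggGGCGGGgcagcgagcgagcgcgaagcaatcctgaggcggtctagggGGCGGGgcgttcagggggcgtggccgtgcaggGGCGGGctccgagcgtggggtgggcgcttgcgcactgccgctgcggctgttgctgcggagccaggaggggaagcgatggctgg
GLUL promoter, upstream start, GRCh38.p14 chr1:182391741-182392040, strand minus: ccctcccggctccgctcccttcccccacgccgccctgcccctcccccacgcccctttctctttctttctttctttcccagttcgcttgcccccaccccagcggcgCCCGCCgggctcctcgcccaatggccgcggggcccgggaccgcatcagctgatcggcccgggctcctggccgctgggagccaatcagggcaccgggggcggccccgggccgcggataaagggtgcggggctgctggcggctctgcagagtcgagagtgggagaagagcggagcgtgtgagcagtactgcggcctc
GLUL promoter, downstream start, GRCh38.p14 chr1:182391292-182391591, strand minus: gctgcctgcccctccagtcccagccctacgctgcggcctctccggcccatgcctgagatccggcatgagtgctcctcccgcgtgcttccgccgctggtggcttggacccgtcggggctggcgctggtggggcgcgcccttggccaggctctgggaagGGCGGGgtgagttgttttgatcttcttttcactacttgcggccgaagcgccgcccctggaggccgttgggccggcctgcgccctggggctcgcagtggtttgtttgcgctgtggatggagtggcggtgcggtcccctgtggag
None of these windows held CACGTG, nor did those of CS, SUCLG1 and GLUD1 (0 of 7 windows), against 7.26% of the 35116 promoter windows of the same length in the RefSeq table. The stretch GGCGGG or CCCGCC was in 5 of the 7 windows, against 45% of all. It occurred 5 times for CS, 3 times for IDH3A, 2 times for GLUD1 and once in each GLUL window. These are letter matches in a short window and say nothing of whether a factor binds.

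High Myc and low Myc arrays both gave higher normalized signals for most of these enzymes than the no Myc arrays. Against no Myc, 6 of the 7 measured genes rose in high Myc and 6 of 7 rose in low Myc, and the same gene, OGDH, missed the threshold in each (limma, adjusted p under 0.05). Over all 19775 genes, 14.2% rose in high Myc and 11.3% rose in low Myc. None of the 7 fell, beside 9% and 8.55% of all genes. The members were chosen with earlier results of these data known, so these shares are no independent test. The median log2 difference of the 7 genes was 0.98 for high Myc and 0.99 for low Myc, beside medians of -0.01 and 0.00 over all genes. Both comparisons share the no Myc arrays. The B-cell markers moved the other way, with 7 of 7 lower in high Myc (median -1.26) and 4 of 7 lower in low Myc (median -1.19) than in no Myc. Their summed intensity was 18960 to 26024 at high Myc, 22923 to 25489 at low Myc and 39206 to 47391 at no Myc, and their part in the members' differences was not tested. Between high Myc and low Myc, limma called 0 of the 7, with 3 at an unadjusted p under 0.05, and 3.6% of all genes were called. When the library labelled no Myc replicate 1 was left out, 6 rose in high Myc and 3 in low Myc. The no Myc group then had 1 array, whose spread was taken to equal that of the other groups.

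**Figure D1:**
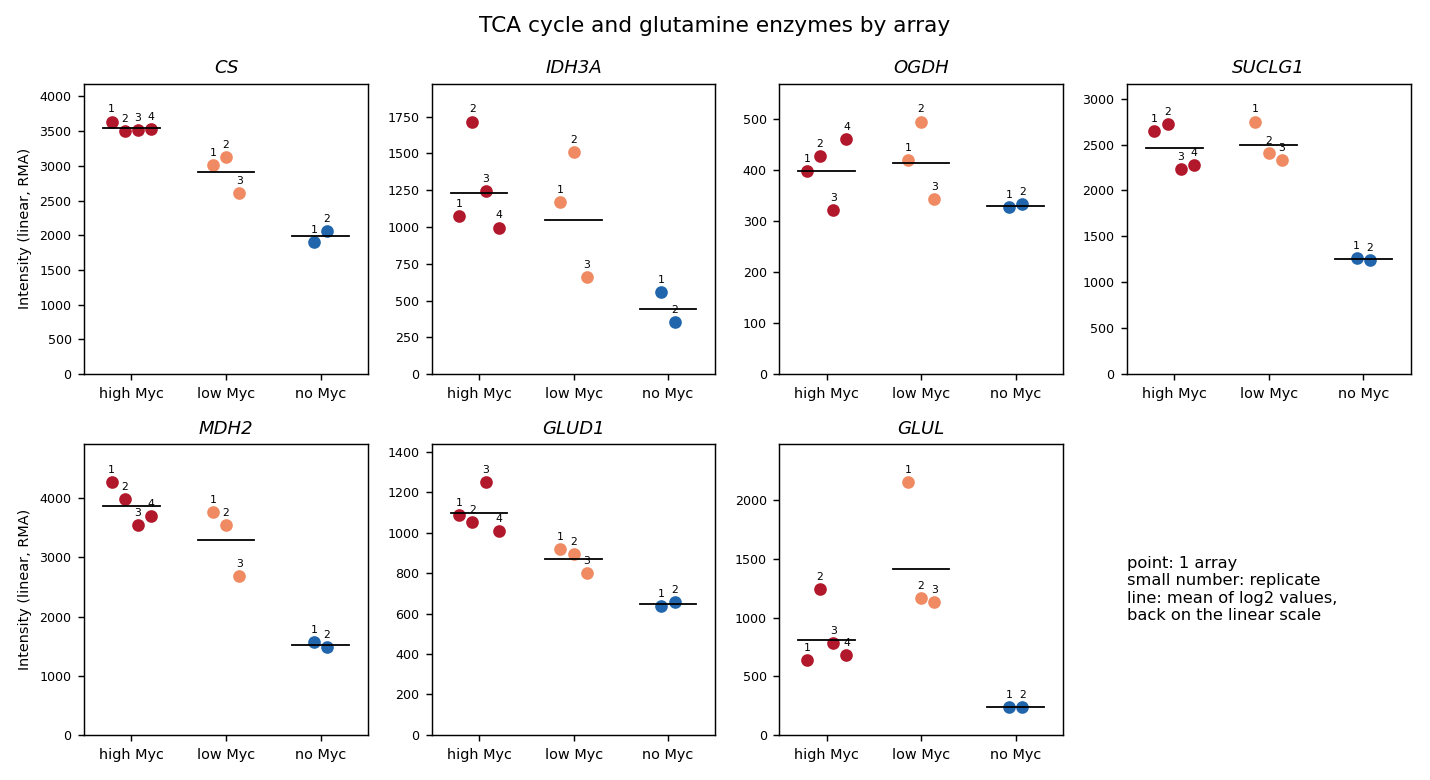
Intensity (linear RMA scale, from 0) of the brightest probe set of each of the 7 measured genes on each array, with the replicate number beside each point and a line at the mean of the log2 values. The no Myc arrays are the lowest for every gene except OGDH, and GLUL is highest on low Myc replicate 1 (2155).

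CS encodes citrate synthase, which joins acetyl-CoA and oxaloacetate at the entry of the cycle. Its intensity was 3637, 3501, 3519 and 3524 on high Myc replicates 1 to 4, then 3010, 3123 and 2610 on the low Myc arrays and 1905 and 2065 on the no Myc arrays. The 3 groups did not overlap, and the high Myc arrays lay within a narrow band. Mean log2 levels were 11.79 ± 0.03 (SD, n = 4) at high Myc, 11.50 ± 0.14 (SD, n = 3) at low Myc and 10.95 ± 0.08 (SD, n = 2) at no Myc. High Myc stood 1.79-fold above no Myc, a log2 difference of 0.84 ± 0.10 (limma, adjusted p = 0.000468). Low Myc was 1.47-fold above no Myc (0.55 ± 0.10, adjusted p = 0.00604). That call needed the library labelled no Myc replicate 1, without which the adjusted p was 0.0635 for a difference of 0.49. High Myc exceeded low Myc by 0.29 (95% interval 0.09 to 0.48), which was not called (adjusted p = 0.118).

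IDH3A is the catalytic subunit of the NAD-dependent isocitrate dehydrogenase, which makes 2-oxoglutarate. It read 1074, 1717, 1242 and 996 on the high Myc arrays, 1169, 1508 and 657 on the low Myc arrays and 556 and 351 on the no Myc arrays. Every high and low Myc array was above both no Myc arrays, but the spread was wide, with high Myc replicate 2 and low Myc replicate 2 at the top and low Myc replicate 3 close to no Myc replicate 1. The log2 difference was 1.48 ± 0.35 for high Myc against no Myc (2.78-fold, adjusted p = 0.0129) and 1.25 ± 0.36 for low Myc (2.38-fold, adjusted p = 0.0409). The high Myc call was lost without no Myc replicate 2 (1.14, adjusted p = 0.131). The low Myc call held in only 2 of the 9 fits with 1 array left out, those without high Myc replicate 2 and low Myc replicate 3; the difference ranged from 0.92 to 1.59 and the adjusted p reached 0.262. It was also lost when only low and no Myc arrays were fitted (adjusted p = 0.0987), with all probe sets fitted (adjusted p = 0.0569) and with the median of its probe sets (0.94, adjusted p = 0.057). A second probe set (202070_s_at) gave 1.04 and 0.87 in the same order. The third (231137_at) read 80.8 to 107 on all arrays and gave -0.08 and -0.10. High Myc and low Myc differed by 0.23 (95% interval -0.46 to 0.92, adjusted p = 0.863).

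Of the partner subunits of IDH3A, named for their role after their values were seen, IDH3B rose and IDH3G did not pass the test. IDH3B was 0.94 ± 0.13 above no Myc in high Myc (adjusted p = 0.000916) and 0.64 ± 0.14 in low Myc (adjusted p = 0.0104). Leaving out the library labelled no Myc replicate 1 ended the low Myc call of IDH3B (adjusted p = 0.0996). IDH3G, the regulatory gamma subunit, differed by 0.13 ± 0.12 and 0.16 ± 0.12 (adjusted p = 0.585 and 0.518), and its high Myc difference turned to -0.04 when quantile normalization was repeated.

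OGDH encodes the E1 subunit of the 2-oxoglutarate dehydrogenase complex, which makes succinyl-CoA. Its values were 397, 427, 321 and 460 on the high Myc arrays, 419, 494 and 343 on the low Myc arrays, and 326 and 333 on the no Myc arrays. High Myc replicate 3 was the lowest array of all, so high Myc and no Myc overlapped, while low Myc stayed just above no Myc. The differences from no Myc were 0.27 ± 0.18 for high Myc (95% interval -0.13 to 0.67, adjusted p = 0.385) and 0.33 ± 0.18 for low Myc (95% interval -0.09 to 0.75, adjusted p = 0.317). The 2 dimmer probe sets gave 0.09 and 0.32 for high Myc and 0.01 and 0.37 for low Myc, none called. High Myc minus low Myc was -0.06 (95% interval -0.41 to 0.29).

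The other subunits of that complex differed among themselves. DLD, the E3 subunit, which the pyruvate dehydrogenase complex also uses, rose by 0.91 ± 0.17 in high Myc and 0.95 ± 0.18 in low Myc over no Myc (adjusted p = 0.00455 and 0.0063), and by 0.59 in each with the median of its probe sets. DLST, the E2 subunit, read 307 to 750 on high Myc, 265 to 584 on low Myc and 273 to 749 on no Myc arrays. Its differences of 0.18 ± 0.49 and -0.16 ± 0.52 were not called, and both changed sign with single arrays left out. DLD and DLST too were chosen by role after their values were seen.

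SUCLG1, the alpha subunit of succinyl-CoA ligase, was about as high in low Myc as in high Myc. It read 2651, 2724, 2234 and 2276 on the high Myc arrays and 2751, 2412 and 2329 on the low Myc arrays, against 1261 and 1243 on the no Myc arrays. All 7 high and low Myc arrays were far above both no Myc arrays, and the high and low Myc values were intermixed. The log2 difference from no Myc was 0.98 ± 0.12 in high Myc (1.97-fold, adjusted p = 0.000532) and 0.99 ± 0.13 in low Myc (1.99-fold, adjusted p = 0.00107). Both calls held in all 9 fits with 1 array left out, and with the median of its probe sets the differences were 0.44 and 0.48, both called. High Myc minus low Myc was -0.02 (95% interval -0.25 to 0.22, adjusted p = 0.979). A second SUCLG1 probe set (244638_at) read only 20.7 to 26.2 on the 9 arrays.

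The beta subunits that pair with SUCLG1, again chosen by role after their values were seen, rose with it. SUCLG2, of the GTP-forming enzyme, was 0.92 ± 0.16 and 0.84 ± 0.17 above no Myc in high and low Myc (adjusted p = 0.00325 and 0.00856). SUCLA2, of the ATP-forming enzyme, was 1.12 ± 0.19 and 1.22 ± 0.20 above it (adjusted p = 0.00265 and 0.00318). SUCLG2 was not called in low Myc without no Myc replicate 2 (adjusted p = 0.0664).

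MDH2 encodes the mitochondrial malate dehydrogenase, which regenerates oxaloacetate. Its intensity was 4271, 3993, 3550 and 3706 on the high Myc arrays, 3766, 3550 and 2685 on the low Myc arrays and 1571 and 1483 on the no Myc arrays. Low Myc replicate 3 was the lowest of the high and low Myc arrays and still far above both no Myc arrays, while high and low Myc overlapped. High Myc exceeded no Myc 2.54-fold (1.34 ± 0.15, adjusted p = 0.000342) and low Myc exceeded it 2.16-fold (1.11 ± 0.15, adjusted p = 0.0015). Both calls held with each array left out in turn. The second probe set (213333_at) gave 0.72 ± 0.17 for high Myc, called in a fit over 54613 probe sets (adjusted p = 0.02), and 0.40 ± 0.18 for low Myc, not called (adjusted p = 0.223). High Myc minus low Myc was 0.23 (95% interval -0.06 to 0.52, adjusted p = 0.458). MDH1, the cytosolic enzyme, rose by 0.95 ± 0.16 in high Myc and 1.33 ± 0.17 in low Myc over no Myc (adjusted p = 0.00234 and 0.00107).

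GLUD1 encodes glutamate dehydrogenase, which converts glutamate to 2-oxoglutarate and ammonia in mitochondria. It read 1087, 1054, 1250 and 1011 on the high Myc arrays, 920, 897 and 802 on the low Myc arrays and 637 and 658 on the no Myc arrays. The 3 groups did not overlap and fell in the order of their labels. GLUD1 rose 1.69-fold in high Myc over no Myc (0.76 ± 0.11, adjusted p = 0.00121) and 1.35-fold in low Myc (0.43 ± 0.12, adjusted p = 0.0315). The low Myc call ended in 4 of the 9 fits with 1 array left out, when that array was low Myc replicate 1, low Myc replicate 2 or one of the no Myc pair. Over the 9 fits the difference was 0.39 to 0.49 and the adjusted p at most 0.174. It also ended with quantile normalization repeated (0.36, adjusted p = 0.0504), with a trended and robust prior (adjusted p = 0.0673) and with only low and no Myc arrays fitted (adjusted p = 0.0721). High Myc exceeded low Myc by 0.33 (95% interval 0.11 to 0.55), not called (adjusted p = 0.108). The second probe set (200946_x_at), whose suffix marks probes that can bind other transcripts, gave 1.07 ± 0.09 and 0.75 ± 0.10 against no Myc. A near-identical paralogue, GLUD2, exists, so its part in these signals cannot be told apart.

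GLUL encodes glutamine synthetase, which makes glutamine from glutamate and ammonia and so runs opposite to glutamine breakdown. It had the largest difference from no Myc of the 7 genes in both comparisons, and its highest mean was in low Myc. Its intensity was 641, 1243, 784 and 677 on the high Myc arrays, 2155, 1166 and 1134 on the low Myc arrays and 242 and 238 on the no Myc arrays. High Myc replicate 2 lay above low Myc replicates 2 and 3, so high and low Myc overlapped, and low Myc replicate 1 was far above all others. GLUL stood 5.91-fold above no Myc in low Myc (2.56 ± 0.33, adjusted p = 0.00119) and 3.37-fold above it in high Myc (1.75 ± 0.32, adjusted p = 0.00357). Both calls held with each array left out in turn. High Myc minus low Myc was -0.81 (95% interval -1.45 to -0.18), not called (adjusted p = 0.165). It was called without high Myc replicate 2 (-1.02, adjusted p = 0.0429) and with array weights (-1.14, adjusted p = 0.0319), and over the other alternatives its adjusted p reached 0.434.

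Further GLUL probe sets had the same order of groups at lower intensity. The probe set 200648_s_at read 127, 314, 104 and 128 on the high Myc arrays, 452, 208 and 258 on the low Myc arrays and 53.3 and 55.7 on the no Myc arrays. Here too high Myc replicate 2 was the highest of its group and low Myc replicate 1 the highest of all. It gave 2.41 ± 0.47 for low Myc against no Myc (adjusted p = 0.0102, over all probe sets) and 1.48 ± 0.44 for high Myc, just short of the threshold (adjusted p = 0.054). The probe set 217202_s_at gave 2.06 ± 0.41 (adjusted p = 0.0114) and 1.26 ± 0.39 (adjusted p = 0.0607). The fourth, 242281_at, read 27.7 to 32.5 on all 9 arrays.

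**Figure D2:**
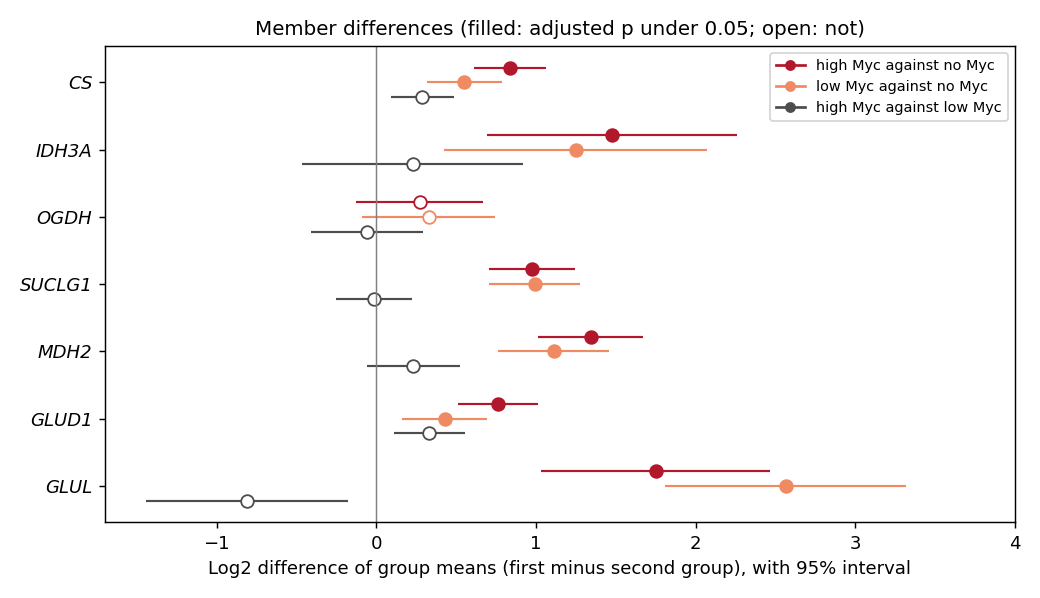
Log2 difference of group means with its 95% interval for each of the 7 measured genes in the 3 comparisons; filled points had an adjusted p under 0.05 and open points did not. All differences from no Myc are positive, and GLUL alone has its high minus low Myc interval wholly below 0 (-1.45 to -0.18).

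Counted by probe set, 9 of the 17 rose over no Myc in high Myc and 8 of 17 in low Myc, and 0 fell. Of all 54613 probe sets without the array's control sets, 9.25% and 6.74% rose in these comparisons and 7.8% and 7.66% fell. Between high and low Myc limma called 0 of 17, with 6 at an unadjusted p under 0.05, beside 1.58% of all probe sets. Among the uncalled probe sets, 231137_at of IDH3A, 244638_at of SUCLG1 and 242281_at of GLUL each read much lower than another probe set of the gene and had differences of -0.10 to -0.03 from no Myc.

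**Figure D3:**
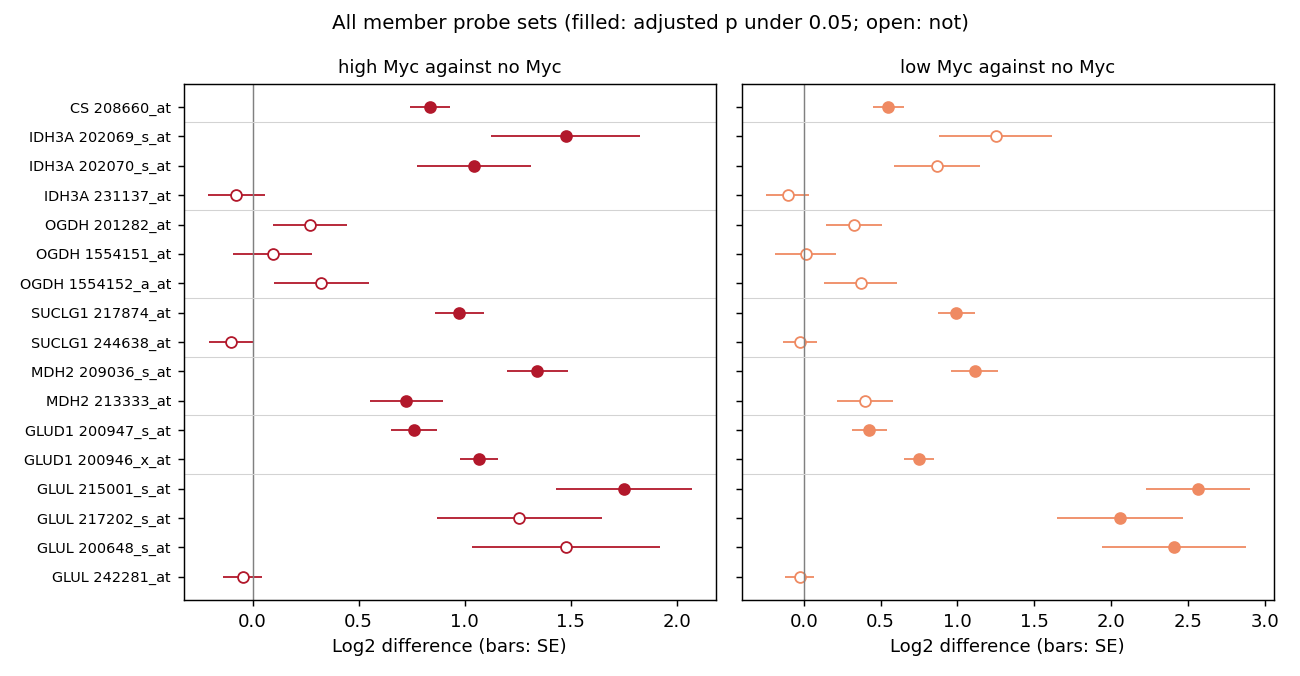
Log2 difference from no Myc, with its SE, for all 17 probe sets, in high Myc (left) and low Myc (right); filled points had an adjusted p under 0.05 over 54613 probe sets. The brightest probe set of each gene stands at the top of its block, and the lowest block, GLUL, spans -0.05 to 1.75 in high Myc and -0.03 to 2.56 in low Myc.

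Set beside MYC itself, all of the measured enzymes gave another order of arrays among low and no Myc. The library labelled no Myc replicate 1, with MYC at 2803, read 1905 for CS, 1571 for MDH2, 1261 for SUCLG1 and 242 for GLUL. No Myc replicate 2, with MYC at 416, read 2065, 1483, 1243 and 238 for the same genes. Low Myc replicate 3, with MYC at 1443, read 2610, 2685, 2329 and 1134. On these 4 genes the no Myc arrays lay close together and below low Myc replicate 3, while their MYC values lay on either side of it. GLUD1 (637 and 658, against 802) and OGDH (326 and 333, against 343) had the same order. IDH3A had this order too, but its no Myc arrays were further apart, at 556 and 351. The higher was replicate 1, as for MYC, MDH2, SUCLG1 and GLUL, and it was near the 657 of low Myc replicate 3.

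By group means, CS, IDH3A, MDH2 and GLUD1 fell in the order high, low and no Myc, and OGDH, SUCLG1 and GLUL in the order low, high and no Myc. None of the steps between high and low Myc was called. Of the 7 genes, 6 had no overlap of values between high and no Myc and 7 had none between low and no Myc, beside 38.4% and 37.6% of all genes. CS and GLUD1 had none between high and low Myc (2 of 7), beside 12.7% of all genes.

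For the members whose group means spanned at least 1 (log2), the genes of the closest pattern were sought among 14090 with a mean log2 of at least 6. The measure was the root mean square difference of centred log2 values over the 9 arrays. Closest to IDH3A were CCDC47 (0.10) and CDKN2AIPNL (0.13). For MDH2 they were YBX1 (0.08) and VDAC2 (0.09), and for GLUL they were GOLIM4 (0.19) and BTG3 (0.20).

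Other genes of the TCA cycle and of pyruvate handling rose in many cases and fell in none that passed the test. Of 35 measured genes of 38 listed, 18 rose in high Myc (51.4%, beside 14.2% of all genes) and 15 rose in low Myc (42.9%, beside 11.3%) against no Myc, with 0 lower in each. The median log2 difference was 0.84 and 0.60. The list was drawn up with earlier results of these data known, so its shares are no independent test. The largest rises in high Myc were DLAT, the E2 subunit of pyruvate dehydrogenase (1.99 ± 0.24), ME1, the cytosolic malic enzyme (1.87 ± 0.33), and SLC25A13, the mitochondrial aspartate-glutamate carrier (1.76 ± 0.33). PDHA1, the E1 alpha subunit of pyruvate dehydrogenase (1.71 ± 0.18), and OGDHL, an OGDH-like protein (1.64 ± 0.36), followed. By the median over probe sets, ME1 gave 0.33 and SLC25A13 0.86 and neither was called. OGDHL lost its call when the library labelled no Myc replicate 1 was left out (adjusted p = 0.104).

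DLAT read 1216 to 1586 on high Myc, 589 to 1029 on low Myc and 297 to 425 on no Myc arrays. These ranges did not overlap. PDHA1 had 1884 to 2134 at high Myc, 1414 to 2056 at low Myc and 522 to 741 at no Myc, so only its no Myc arrays stood apart. In low Myc the largest rises over no Myc were MPC1, a subunit of the mitochondrial pyruvate carrier (1.84 ± 0.35), PDHA1 (1.48 ± 0.19), MDH1 (1.33 ± 0.17), SLC25A13 (1.28 ± 0.35) and DLAT (1.23 ± 0.25). MPC1 was 0.94 by the median over probe sets, still called, and lost its call when the library labelled no Myc replicate 1 was left out (adjusted p = 0.072). DLAT lost it without no Myc replicate 2 (adjusted p = 0.0836). SLC25A13 lost it in 4 of the 9 such fits, without low Myc replicate 1, low Myc replicate 2 or one of the no Myc pair (adjusted p at most 0.166), and was 0.54, not called, by the median over probe sets. The low Myc count of the list was 9 when one or the other no Myc array was left out. Between high and low Myc limma called 0 of 35, with 10 at an unadjusted p under 0.05, beside 3.6% of all genes called. That count was 2, both lower in high Myc, without high Myc replicate 2, and 1, higher in high Myc, without low Myc replicate 2.

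Genes that use, move or make glutamine and glutamate rose in many cases, and few fell. Of 34 measured genes of 40 listed, 18 rose and 1 fell in high Myc, and 17 rose and 2 fell in low Myc, against no Myc. The called genes made up 55.9% of the list in each, and over all genes 14.2% rose and 9% fell in high Myc and 11.3% rose and 8.55% fell in low Myc. The median log2 difference was 1.10 and 1.05. This list too was drawn up with earlier results of these data known. PSAT1, a transaminase of serine synthesis that turns glutamate into 2-oxoglutarate, was 18.3-fold higher in high Myc and 17.8-fold higher in low Myc, log2 differences of 4.19 and 4.15. Its other probe set gave 2.64 and 2.58, and the median over both 3.41 and 3.37, all called. The amino acid transporter SLC7A5 was 10.7-fold and 4.46-fold higher, and the purine enzymes PFAS and PPAT, which take nitrogen from glutamine, were 7.77-fold and 6.03-fold higher in high Myc and 4.90-fold and 3.97-fold in low Myc. SLC38A5, a glutamine transporter, was 6.61-fold higher in high Myc. In low Myc its log2 difference was 1.61, not called in the fit over all probe sets. ASNS, asparagine synthetase, was 6.37-fold higher in low Myc. It also rose in high Myc, by 2.31 (log2), called in that fit. Neither gene was called between high and low Myc. By the median over the probe sets of ASNS, its low Myc log2 difference was 1.39 in place of 2.67.

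On the way from glutamine to 2-oxoglutarate, SLC1A5, which imports glutamine, rose by 1.44 ± 0.20 in high Myc and 1.41 ± 0.21 in low Myc (adjusted p = 0.000877 and 0.00193). The mitochondrial transaminase GOT2 rose by 1.75 ± 0.17 and 1.30 ± 0.18, and the cytosolic GOT1 by 1.29 ± 0.29 and 1.71 ± 0.31. GOT1 lost its call when the library labelled no Myc replicate 1 was left out, in high Myc (1.17, adjusted p = 0.102) and in low Myc (1.59, adjusted p = 0.052). These 3 genes were named for their role after their values were seen.

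ABAT, which breaks down the glutamate product GABA, was the gene that fell in both. It read 102 to 129 on high Myc and 92.8 to 118 on low Myc arrays, against 294 to 324 on no Myc arrays. It was lower than in no Myc by -1.43 ± 0.13 in high Myc and -1.58 ± 0.14 in low Myc (adjusted p = 0.000165 and 0.00032). GCLC, the catalytic subunit that joins glutamate and cysteine in glutathione synthesis, was the second faller in low Myc (-0.68 ± 0.19, adjusted p = 0.0312). GCLC kept that call in 4 of the 9 fits with 1 array left out and lost it without high Myc replicate 3, low Myc replicate 2, low Myc replicate 3 or one of the no Myc pair (adjusted p at most 0.189). It also lost it with array weights (-0.51, adjusted p = 0.0635) and with only low and no Myc arrays fitted (adjusted p = 0.0841).

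Between high and low Myc, 3 of the 34 were called, all higher in high Myc, beside 2.33% of all genes higher and 1.27% lower. They were SLC7A5 (1.26 ± 0.25, adjusted p = 0.0325), GCLC (0.91 ± 0.16, adjusted p = 0.0191) and ALDH18A1 (0.82 ± 0.16, adjusted p = 0.0317), which starts proline synthesis from glutamate. With 1 array left out the count ran from 0 to 5, the highest without high Myc replicate 2. It was 0 without high Myc replicate 1 or 3, and 1 without high Myc replicate 4, low Myc replicate 1 or either no Myc array. SLC7A5 and ALDH18A1 were each lost in 6 of the 9 fits, at an adjusted p reaching 0.102 and 0.0971, and GCLC in 2, at one reaching 0.0653. SLC7A5 and ALDH18A1 were also lost with only high and low Myc arrays fitted (adjusted p = 0.0603 and 0.059).

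**Figure D4:**
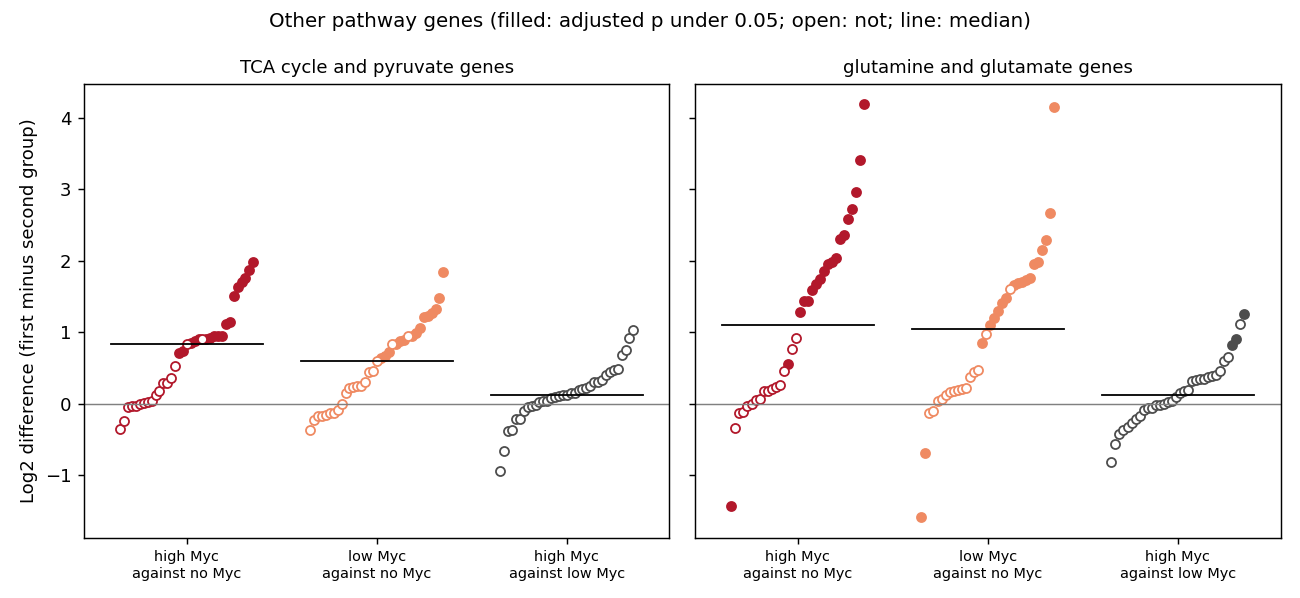
Log2 differences of the 35 other TCA cycle and pyruvate genes (left) and the 34 glutamine and glutamate genes (right) in the 3 comparisons, each point 1 gene, sorted by value, with a line at the median. Filled points had an adjusted p under 0.05; the medians over no Myc are 0.84 and 1.10 in high Myc and 0.60 and 1.05 in low Myc, and those of high minus low Myc are 0.13 and 0.12.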

How the data were processed

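RNA of 9 arrays was analysed. The authors deposited RMA intensity values on a linear scale, 1 for each probe set (RMA per the submitters' processing notes; its version and the genome build are not given in the sources used here). This method is meant to give arrays like distributions, which would hide a change in the RNA content of a cell. The deposited distributions were not fully alike, since repeating quantile normalization changed the differences. For high against no Myc it shrank those of all measured members. CS went from 0.84 to 0.64, SUCLG1 from 0.98 to 0.77, MDH2 from 1.34 to 1.15 and GLUD1 from 0.76 to 0.59. The same 6 members stayed called. Log2 of these values was fitted with limma 3.58.1 in R 4.3.3 (all 9 arrays, group means, 6 residual degrees of freedom, both sides tested). Benjamini-Hochberg adjustment ran over 19775 genes, each represented by its probe set with the highest mean, and separately over 54613 probe sets without 62 controls. Of 54675 probe sets 41097 had 1 symbol, 1801 several and 11777 none. For 41043 of those with 1 symbol the RefSeq symbol was taken by Entrez identifier, whether or not it differed from the annotated one.

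Members and lists were chosen with earlier results of these data known. Genes named were the members and, per pathway list and comparison, up to 5 called genes with the largest difference in each direction whose groups did not overlap, besides those said to be chosen by role. The 10 alternatives changed the scaling, filter, probe set choice, prior, array weights, samples fitted, block and threshold, and 9 more fits left out 1 array each. Same-numbered arrays were checked for pairing by the correlations of their deviations from group means. These were 0.25 to 0.47 among the replicate 1 arrays, 0.03 to 0.10 among the replicate 2 arrays and -0.31 for the replicate 3 pair. The replicate 1 arrays thus deviated together in part, while the others did not. The number was used as a block only as an alternative. The procedure was tested on simulated data with normal noise at each gene's own spread. Over the 3 comparisons, added 2-fold differences were called in 65% to 75.2% of cases and 4-fold differences in 94.4% to 96.9%. Of the calls, 5.27% to 6.01% were false. A true difference of 2-fold or less can thus go uncalled. The number of arrays limits the precision.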

Additional observations from a re-analysis of the deposited data

Results flagged for a closer look

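Within the high Myc group, the one group with enough arrays for the rule, OGDH was flagged for 2 of its dimmer probe sets because 1 array stood apart from the other 3. For 1554151_at, high Myc replicate 1 read 181 against 132 to 136, a gap of 0.89 of the group's range. For 1554152_a_at, high Myc replicate 2 read 106 against 66.3 to 67.9, a gap of 0.95. Of 33 probe sets tested 2 were flagged, and chance flags about 1 in 20 groups.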

How the results depend on the processing

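The 12 counts of called genes were recomputed under 10 other settings, and 107 of the 120 values stayed within 1.5 times the main count. Of the counts of members, none moved further except that between high and low Myc, which was 1 (GLUL, lower at high Myc) with array weights. Counts over all genes moved most. At an adjusted p under 0.01, 3048 genes were called for high against no Myc, 2188 for low against no Myc and 143 for high against low Myc. For high against low Myc, where 712 were called, the count was 1684 with array weights, 406 with only the 2 groups compared, and 437 when all probe sets were fitted. The split of that comparison was 508 higher and 481 lower with quantile normalization repeated, beside 460 and 252. With array weights, 2 TCA cycle and pyruvate genes were called between high and low Myc and 5 glutamine and glutamate genes. The latter count was 1 with only the 2 groups compared, 0 at an adjusted p under 0.01, and 2 when the median of probe sets was used or all probe sets were fitted.

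With the replicate number as a block, 154 genes were called between high and low Myc and 1 glutamine and glutamate gene. OGDH was then called in low Myc against no Myc (0.46, adjusted p = 0.0356), GLUD1 was not (adjusted p = 0.0961), and SUCLG1 turned to 0.021 between high and low Myc.

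Leaving out each array gave 2714 to 4868 genes for high against no Myc, 1855 to 4381 for low against no Myc and 228 to 1204 for high against low Myc. Leaving out the library labelled no Myc replicate 1 gave the lowest of the first 2 ranges. The last was lowest without high Myc replicate 4 and highest without high Myc replicate 2, and its count also fell by over 1.5 times when high Myc replicates 1 and 3, low Myc replicate 1 and the no Myc arrays were each left out. Members called were 5 to 6, 3 to 6 and 0 to 1, TCA cycle and pyruvate genes 15 to 21, 9 to 20 and 0 to 2, and glutamine and glutamate genes 18 to 21, 14 to 20 and 0 to 5. Differences that changed sign were all uncalled. Between high and low Myc, IDH3A ranged from -0.11 to 0.49, OGDH from -0.19 to 0.071 and SUCLG1 from -0.066 to 0.055. OGDH was 0.081 there with the median of probe sets. DLST ranged from -0.55 to 0.90 in high Myc and from -0.89 to 0.56 in low Myc against no Myc, and was 0.13 with array weights and 0.19 with the replicate number as a block in low Myc. IDH3G was -0.044 in high Myc with quantile normalization repeated. The causes were not tested.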
